A study of Homo sapiens with 15 samples.

Results

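CLDN1, CLDN2, CLDN3, CLDN15, DSG2 and PKP2 are 6 genes of the junctions that hold intestinal epithelial cells together, and they were followed on 15 arrays of Caco-2 cells, an established line from a human colon carcinoma whose confluent cells come to resemble absorptive cells of the small intestine. They were found by symbol in the platform annotation, each symbol had 1 row in the deposited table, and all 6 were among the 11804 genes tested of 14884 named. The 5 LPS+RSV samples received 50 µM trans-resveratrol, a plant polyphenol dissolved in ethanol, 1 h before lipopolysaccharide (LPS). The 5 LPS samples received LPS of the E. coli K12 strain, the endotoxin of the bacterial outer membrane, at 1 µg/mL for 48 h, and the 5 control samples were untreated. All were grown in 6-well plates and used 15 to 19 days after seeding. The labels do not say which sample belongs to which day, whether the LPS or control cells received ethanol, or whether the numbered samples came from separate cultures, so a p-value here reflects how these samples scatter, and that scatter may be technical. Ethanol and resveratrol cannot be told apart in the comparison of LPS+RSV with LPS.

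Tight junctions close the space between neighbouring epithelial cells near their apical side, and claudins are the membrane proteins that set what passes there. Claudin 2 and claudin 15 form channels for small cations, and claudin 2 also lets water through, whereas claudin 1 and claudin 3 are sealing claudins that narrow the path between cells. Desmosomes lie below and give the sheet its mechanical strength: desmoglein 2 (DSG2) is an adhesive cadherin of the cell surface, and plakophilin 2 (PKP2) is a plaque protein that links such cadherins to desmoplakin and, through it, to keratin filaments. RNA levels were measured here, not protein, junction structure or permeability.

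The promoters of 5 of the 6 genes, with 6 starts, were matched by symbol in RefSeq (GRCh38.p14). The 250 bases before the start are shown for CLDN2 and CLDN15, the channel-forming pair, and for DSG2, which had the largest mean differences of the 6 genes between LPS cells and either other group over all arrays, though not without LPS 1 and 2. Capitals mark AP-1 letters (TGANTCA) in the claudins and Snail E-box letters (CAGGTG or its reverse complement) in DSG2.
CLDN2, chrX:106899914-106900163, plus strand: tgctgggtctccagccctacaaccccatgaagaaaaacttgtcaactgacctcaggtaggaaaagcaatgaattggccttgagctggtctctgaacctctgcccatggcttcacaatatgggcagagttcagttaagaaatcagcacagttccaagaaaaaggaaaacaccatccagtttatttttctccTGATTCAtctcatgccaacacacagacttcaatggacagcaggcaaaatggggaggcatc
CLDN15, chr7:101237803-101238052, minus strand: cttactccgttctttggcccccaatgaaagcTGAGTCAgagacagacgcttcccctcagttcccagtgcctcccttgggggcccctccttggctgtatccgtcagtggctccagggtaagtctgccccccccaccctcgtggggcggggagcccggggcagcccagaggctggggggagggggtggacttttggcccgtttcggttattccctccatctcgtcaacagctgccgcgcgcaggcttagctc
DSG2, chr18:31497927-31498176, plus strand: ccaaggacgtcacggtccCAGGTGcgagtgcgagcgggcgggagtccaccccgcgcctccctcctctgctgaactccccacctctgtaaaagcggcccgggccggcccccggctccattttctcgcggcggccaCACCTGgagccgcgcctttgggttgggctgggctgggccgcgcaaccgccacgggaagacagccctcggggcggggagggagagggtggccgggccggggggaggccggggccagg
RefSeq lists 2 starts of CLDN2, and the window of the second (chrX:106918110-106918359) held none of the letters searched. The CLDN15 start used here lies inside the gene, which RefSeq places at chr7:101232094-101238820, and not at its upstream end. The AP-1 letters began 60 bases before the first CLDN2 start, as TGATTCA, and 219 bases before the CLDN15 start, as TGAGTCA. They occurred in 6.57% of 35116 promoters of that length. In DSG2, the E-box letters began 232 and 116 bases before the start, and 17.5% of promoters held them. The GC box (GGGCGG), present in 42.6% of promoters, was in the windows of CLDN1, CLDN3, CLDN15 and DSG2. None of the 6 windows held the letters searched for NF-kappaB (in 1.73% of promoters), ETS factors (CCGGAA, in 14.5%), CDX factors (TTTATNG, in 8.93%), HNF1 (GTTAAT, in 6.23%), HNF4 (CAAAGTCCA, in 0.325%), KLF5 (GGGTGTGGC, in 0.88%), TCF (CTTTGAT, in 2.26%) or the TATA box (TATAAA, in 10.7%). Both strands were searched, and the TATA and CDX letters can overlap in the shared run ATAAA. These are matches of letters in RefSeq sequence, and binding was not measured.

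The values are log2 expression values made with RMA, which corrects the background, normalizes the arrays to one distribution and summarises the probes of a row; a difference of 1 is a 2-fold change. Array medians lay between 5.49 and 5.54. All 7 enterocyte markers named on the array (VIL1, SI, APOA1, APOA4, DPP4, ANPEP and LCT) were above the filter on dim rows, as were 4 of 4 epithelial markers. Of markers of other cells, 4 of 4 goblet, 2 of 2 Paneth and 3 of 4 enteroendocrine markers were above it too. CD68 was the immune marker named here and was above the filter, the fibroblast marker LUM was above it and DCN below it, and 2 of 3 endothelial markers were above it. The filter kept 11804 of all 14884 named genes, so these counts do not tell cell types apart. The mean level of the epithelial markers, KRT18 among them, ran from 9.71 to 9.92 in LPS+RSV, 9.95 to 10.19 in LPS and 9.71 to 9.84 in control samples. That of the 2 fibroblast markers ran from 3.64 to 3.998, 3.97 to 4.72 and 3.84 to 4.17 in the same groups. On every array it lay below the filter level of 5.03 to 5.09. The enterocyte markers had 8.80 to 9.83, 8.84 to 9.47 and 8.98 to 9.74. For them and for the goblet, Paneth, enteroendocrine, immune and endothelial markers, the ranges of the 3 groups overlapped. Their part in the results was not tested. In RNA from whole cultures, fewer cells of a type and less RNA per cell cannot be told apart.

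LPS 1 and LPS 2 stood apart from LPS 3 to 5 in several junction genes, so differences that turn direction or move by over 1.5 times without them are also given without them. They had 9.83 and 9.99 for DSG2, against 8.81 to 9.11 in the other 3 LPS samples, and 10.30 and 10.41 for PKP2, against 10.00 to 10.15. They were likewise high in DSC2, the desmocollin partner of desmoglein 2 (9.60 and 9.81, against 8.93 to 9.08), in CLDN7 (10.23 and 10.15, against 9.30 to 9.88) and in KRT20, a keratin of differentiated intestinal cells (7.62 and 7.96, against 5.79 to 6.34). For CLDN1 they were the lowest of the LPS samples, at 11.11 and 11.09, against 11.19 to 11.39.

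In LPS cells, CLDN2 and CLDN1 were higher than in control cells on every array, the means of DSG2 and PKP2 were also higher, and those of CLDN3 and CLDN15 were lower. In LPS+RSV cells each of the 6 means was displaced from LPS in the opposite direction, and none of the 6 genes passed the threshold of the fit over all genes in any comparison. The direction did not divide the channel-forming claudins from the sealing ones: CLDN2 went with CLDN1, and CLDN15 with CLDN3. The 6 genes were selected on the log2 differences between the 3 groups of these same arrays, so their group values and differences are a description and are no independent evidence.

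**Figure D1:**
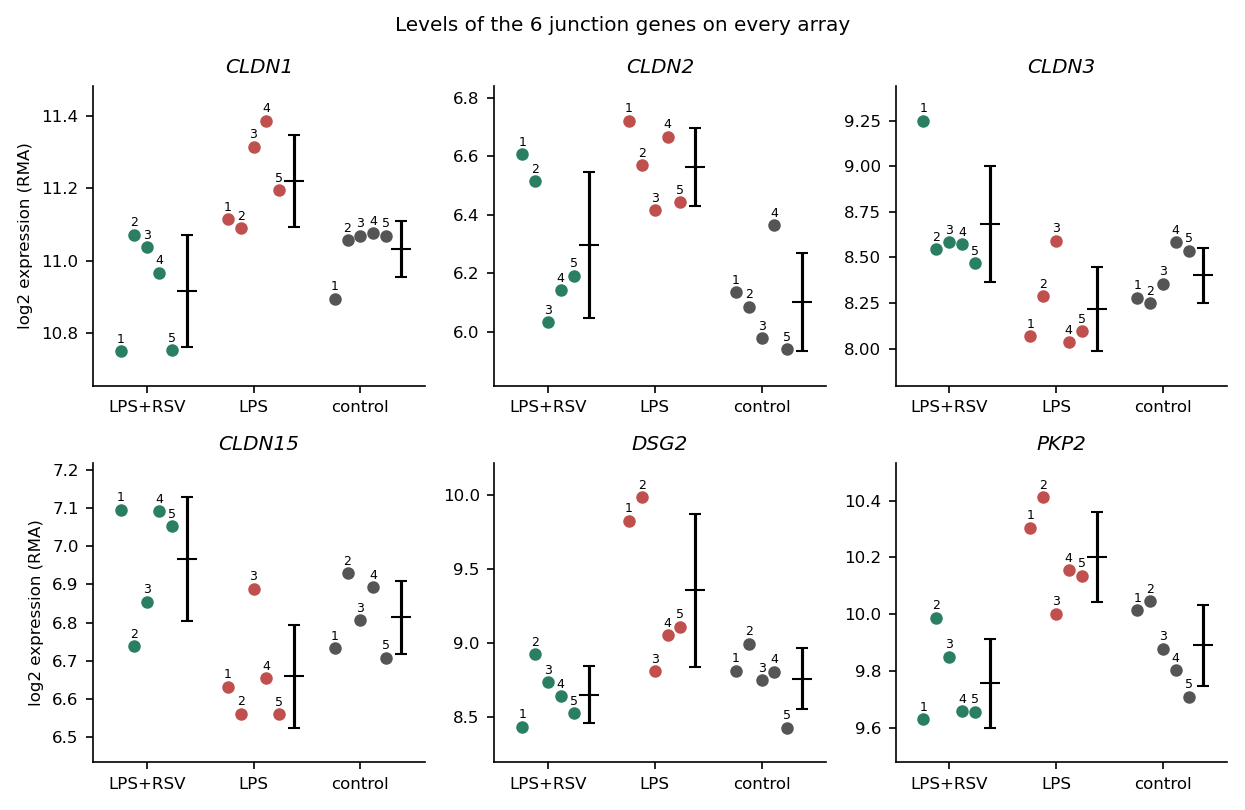
Each panel plots 1 gene, with log2 expression on the vertical axis and the 5 LPS+RSV, 5 LPS and 5 control arrays as numbered points; bars beside them are the mean ± SD. CLDN1 and CLDN2 lie higher in all 5 LPS samples than in all 5 control samples, LPS 1 and 2 lie far above the other LPS samples for DSG2, and LPS+RSV 1 lies above the other LPS+RSV samples for CLDN3.

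CLDN2 encodes the cation and water channel that is the best known leaky claudin of the gut. Its log2 values were 6.61, 6.51, 6.03, 6.14 and 6.19 in LPS+RSV 1 to 5, then 6.72, 6.57, 6.42, 6.67 and 6.44 in LPS 1 to 5, and 6.13, 6.09, 5.98, 6.36 and 5.94 in control 1 to 5. All 5 LPS samples lay above all 5 control samples, while LPS+RSV 1 and 2 reached the LPS values and LPS+RSV 3 to 5 lay among the controls. The means were 6.30 ± 0.25, 6.56 ± 0.13 and 6.10 ± 0.17 (SD, n = 5 each) in LPS+RSV, LPS and control cells. LPS minus control was 0.46 ± 0.11 (SE; 95% interval 0.22 to 0.71), a ratio of 1.38, and stayed at 0.41 without LPS 1 and 2. LPS+RSV minus LPS was -0.27 ± 0.11 (SE; 95% interval -0.51 to -0.02). In the order LPS, LPS+RSV, control, each neighbouring pair of groups overlapped.

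CLDN15 encodes the main cation channel claudin of small-intestinal villi. It had 7.10, 6.74, 6.85, 7.09 and 7.05 in LPS+RSV 1 to 5, then 6.63, 6.56, 6.89, 6.65 and 6.56 in LPS 1 to 5, and 6.73, 6.93, 6.81, 6.89 and 6.71 in control 1 to 5. LPS 3 was the one LPS sample inside the range of the LPS+RSV samples, and LPS and control samples overlapped through it too. The means were 6.97 ± 0.16 in LPS+RSV, 6.66 ± 0.14 in LPS and 6.81 ± 0.10 in control cells (SD, n = 5 each). LPS+RSV minus LPS was 0.31 ± 0.09 (SE; 95% interval 0.12 to 0.49), and LPS minus control was -0.15 ± 0.09 (SE; 95% interval -0.34 to 0.03), which spans 0. Ordered LPS+RSV, control, LPS, neighbouring groups overlapped. The LPS means of the 2 channel-forming claudins thus lay on opposite sides of their control means.

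CLDN1 encodes a sealing claudin that is needed for barriers such as that of the epidermis. Its values were 10.75, 11.07, 11.04, 10.97 and 10.75 in LPS+RSV 1 to 5, then 11.11, 11.09, 11.32, 11.39 and 11.19 in LPS 1 to 5, and 10.89, 11.06, 11.07, 11.07 and 11.07 in control 1 to 5. The LPS samples lay above every LPS+RSV and every control sample, but by a narrow margin, since the lowest of them was 11.09 and the highest of the others was 11.07 in both groups. Means were 10.92 ± 0.15 in LPS+RSV, 11.22 ± 0.13 in LPS and 11.03 ± 0.08 in control cells (SD, n = 5 each). LPS minus control was 0.19 ± 0.08 (SE; 95% interval 0.01 to 0.36), and LPS+RSV minus LPS was -0.31 ± 0.08 (SE; 95% interval -0.48 to -0.13). Without LPS 1 and 2 these became 0.27 and -0.38. Control and LPS+RSV samples overlapped.

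CLDN3 encodes another sealing claudin, abundant in intestinal epithelium. It had 9.25, 8.55, 8.58, 8.57 and 8.47 in LPS+RSV 1 to 5, then 8.07, 8.29, 8.59, 8.04 and 8.10 in LPS 1 to 5, and 8.28, 8.25, 8.36, 8.59 and 8.54 in control 1 to 5. LPS+RSV 1 stood far above the rest, and LPS 3, at 8.59, lay above 4 of the 5 LPS+RSV samples. Means were 8.68 ± 0.32 in LPS+RSV, 8.22 ± 0.23 in LPS and 8.40 ± 0.15 in control cells (SD, n = 5 each). LPS+RSV minus LPS was 0.47 ± 0.14 (SE; 95% interval 0.17 to 0.77), a ratio of 1.38, and was 0.33 without LPS+RSV 1. LPS minus control was -0.18 ± 0.14 (SE; 95% interval -0.49 to 0.12). LPS+RSV minus control was 0.28 ± 0.14 (SE) and 0.14 without LPS+RSV 1. In the order LPS+RSV, control, LPS, neighbouring groups overlapped.

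DSG2, the desmosomal cadherin of simple epithelia, had the widest range over the 15 arrays of the 6 genes. Its values were 8.44, 8.93, 8.73, 8.64 and 8.53 in LPS+RSV 1 to 5, then 9.83, 9.99, 8.81, 9.05 and 9.11 in LPS 1 to 5, and 8.81, 8.996, 8.75, 8.81 and 8.43 in control 1 to 5. LPS 1 and 2 were the 2 highest of all 15 arrays, LPS 4 and 5 lay just above the remaining groups, and LPS 3 lay within them. Means were 8.65 ± 0.19 in LPS+RSV, 9.36 ± 0.52 in LPS and 8.76 ± 0.21 in control cells (SD, n = 5 each). The fit shares 1 spread among the groups, so its errors understate the spread of the LPS samples. LPS minus control was 0.60 ± 0.19 (SE; 95% interval 0.19 to 1.01), a ratio of 1.51, and was 0.23 without LPS 1 and 2. LPS+RSV minus LPS was -0.71 ± 0.19 (SE; 95% interval -1.11 to -0.30), a ratio of 0.613, and was -0.34 without them. LPS+RSV and control samples overlapped, as did each with LPS.

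PKP2, the plaque partner of the desmosomal cadherins, had 9.63, 9.99, 9.85, 9.66 and 9.66 in LPS+RSV 1 to 5, then 10.30, 10.41, 10.00, 10.15 and 10.14 in LPS 1 to 5, and 10.01, 10.05, 9.88, 9.80 and 9.71 in control 1 to 5. All LPS+RSV samples lay below all LPS samples, although LPS+RSV 2 at 9.99 came close to LPS 3 at 10.00, and LPS 3 lay below 2 control samples. Means were 9.76 ± 0.16 in LPS+RSV, 10.20 ± 0.16 in LPS and 9.89 ± 0.14 in control cells (SD, n = 5 each). LPS+RSV minus LPS was -0.44 ± 0.10 (SE; 95% interval -0.65 to -0.24), a ratio of 0.735. LPS minus control was 0.31 ± 0.10 (SE; 95% interval 0.11 to 0.51), a ratio of 1.24. Without LPS 1 and 2 the differences were -0.34 and 0.21. In the order LPS, control, LPS+RSV, neighbouring groups overlapped.

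**Figure D2:**
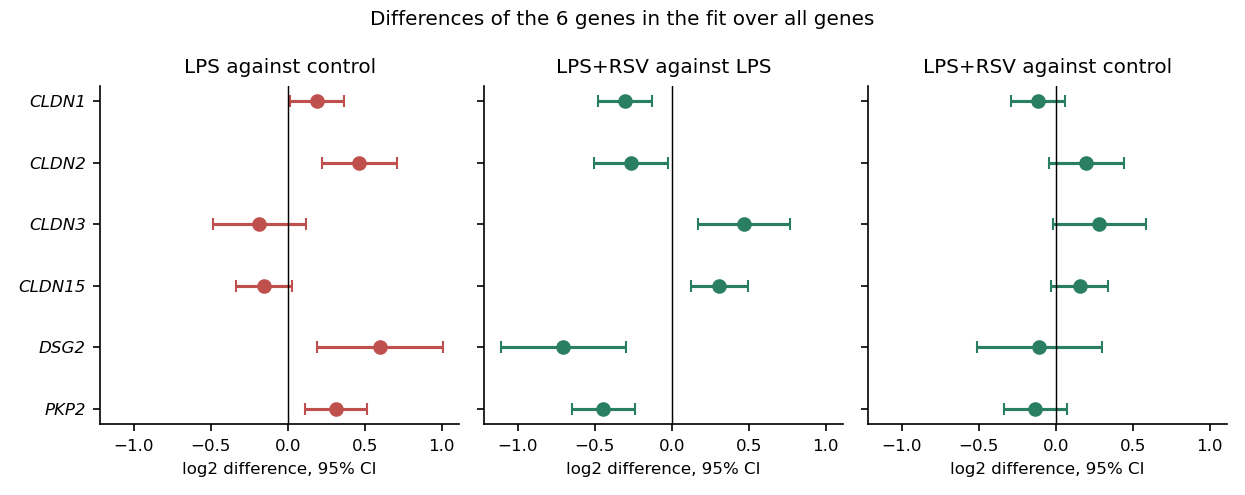
The fitted log2 difference of each of the 6 genes, with its 95% interval, is drawn on the horizontal axis, with 1 panel for each of the 3 comparisons. In LPS against control CLDN3 and CLDN15 lie left of 0 and the other 4 genes right of it, in LPS+RSV against LPS all 6 lie on the other side, and in LPS+RSV against control all 6 intervals include 0.

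The counts below come from limma's linear model over all 11804 genes, with Benjamini-Hochberg adjustment, and use the contrasts that were known when the genes were chosen. In LPS against control, 0 of 6 passed at an adjusted p under 0.05, where 0.0254% of all genes did, and the adjusted p-values of the 6 ran from 0.290 to 0.814. At an unadjusted p under 0.05 there were 4 of 6 (CLDN1, CLDN2, DSG2 and PKP2), beside 7.88% of all genes, and the groups did not overlap for 2 of 6 (CLDN1 and CLDN2), beside 2.21%. In LPS+RSV against LPS, 0 of 6 passed, where 0.0424% of all genes did, with adjusted p-values from 0.0712 for PKP2 to 0.236 for CLDN2. Without LPS 3 both DSG2 (adjusted p = 0.0457) and PKP2 (adjusted p = 0.0379) passed, and without LPS+RSV 2 PKP2 passed (adjusted p = 0.0427). With 1 array left out, the number of all genes that passed in this comparison ran from 1 to 121, beside 5 in the fit reported. All 6 of 6 had an unadjusted p under 0.05, beside 18.6% of all genes, and the groups did not overlap for 2 of 6 (CLDN1 and PKP2), beside 2.8%. Both comparisons contain the same LPS samples, so opposite signs in them are not separate observations. In LPS+RSV against control, 0 of 6 passed in limma, as did 0% of all genes. There, 0 of 6 had an unadjusted p under 0.05, beside 10.5% of all genes, and 0 of 6 did not overlap, beside 1.72%. The differences in that comparison were -0.12 for CLDN1, 0.20 for CLDN2, 0.28 for CLDN3, 0.15 for CLDN15, -0.11 for DSG2 and -0.13 for PKP2. Their intervals allow differences of up to 0.44 for CLDN2 and 0.58 for CLDN3 above control and down to -0.51 for DSG2 below it. Several of these small differences hang on single arrays: without LPS+RSV 1 they were -0.08 for CLDN1, 0.12 for CLDN2 and -0.05 for DSG2, without LPS+RSV 5 -0.08 for CLDN1, without control 2 -0.05 for DSG2, and with 1 array left out in turn DSG2 ranged from -0.19 (without control 5) to -0.05. None of the 6 changed sign in these fits. The median difference of the 6 genes was 0.25 in LPS against control (0.01 over all genes tested), -0.29 in LPS+RSV against LPS (0.01) and 0.02 in LPS+RSV against control (0.02).

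To set the channel-forming against the sealing claudins, each gene was expressed as its deviation from its mean over the 15 arrays, and the mean of CLDN1 and CLDN3 was taken from that of CLDN2 and CLDN15. The resulting score averaged 0.01 ± 0.13 in LPS+RSV, 0.07 ± 0.14 in LPS and -0.08 ± 0.14 in control cells (SD, n = 5 each). The 3 groups overlapped. LPS minus control was 0.15 ± 0.09 (SE), about as large as the spread within a group, and was 0.09 ± 0.10 without LPS 1 and 2. LPS+RSV minus LPS was -0.06 ± 0.09, and was -0.0016 without them. Within each class the 2 members lay on opposite sides: the sealing pair differed by 0.00 ± 0.08 between LPS and control cells, with CLDN1 higher and CLDN3 lower, and the channel pair differed by 0.15 ± 0.06 with CLDN2 higher and CLDN15 lower. Without LPS 1 and 2 the sealing pair differed by 0.05 ± 0.10 and the channel pair by 0.15 ± 0.07 (SE).

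**Figure D3:**
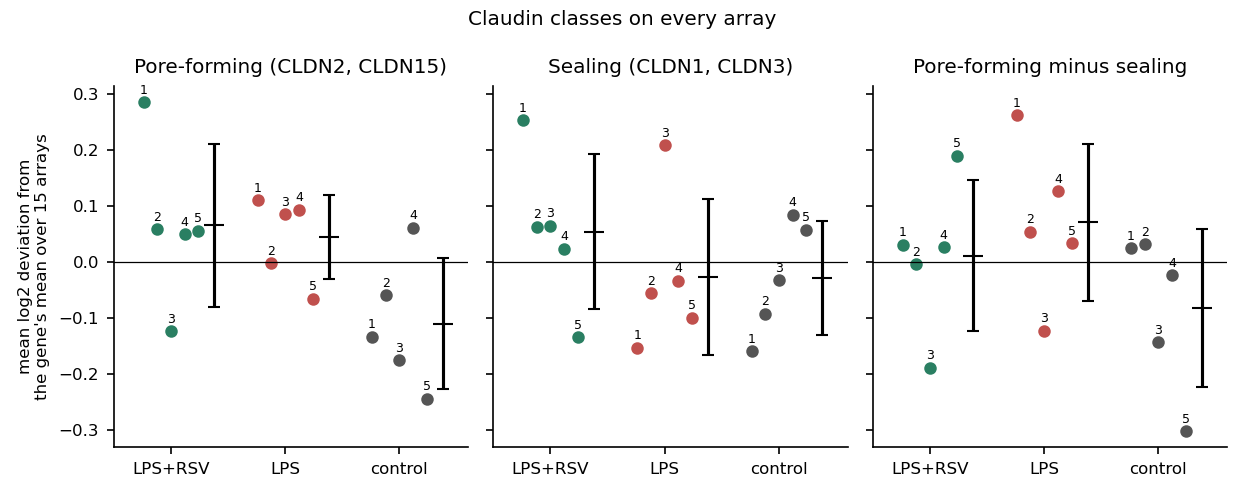
The panels plot the mean log2 deviation of the channel-forming claudins, that of the sealing claudins, and the first minus the second, for the numbered LPS+RSV, LPS and control arrays, with the mean ± SD beside them. The groups overlap in each panel, and the mean of the difference is 0.07 in LPS and -0.08 in control samples.

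DSG2 and PKP2 varied together across arrays. Their Pearson correlation was 0.923 over the 15 arrays, 0.855 after each group was centred on its mean, and 0.926 over the 13 arrays without LPS 1 and 2. CLDN3 and CLDN15 had a correlation of 0.702, which was 0.440 with centred groups. Both ran against PKP2, at -0.718 for CLDN3 and -0.807 for CLDN15, and at -0.488 and -0.584 with centred groups. CLDN1 and CLDN2, which were both higher in LPS cells, had 0.290 over all arrays and -0.198 with centred groups, so within a group they did not vary together. These correlations describe arrays that share their normalization and groups, and no test was made of them.

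**Figure D4:**
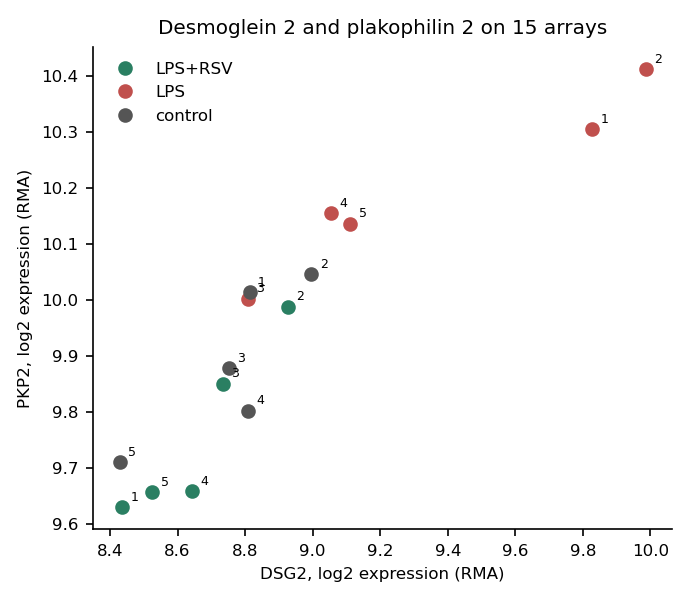
Each point is 1 of the 15 arrays, with the log2 level of DSG2 on the horizontal and that of PKP2 on the vertical axis, coloured by group and numbered by replicate. The points lie along one line with LPS 1 and 2 at its upper end, and LPS 3 lies among the control samples.

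The genes most like each member were the 3 with the highest Pearson correlation over the 15 arrays, given here with the value after centring groups. For DSG2 they were SDCBP, which encodes the scaffold protein syntenin 1 (0.973, centred 0.982), SOX4, a transcription factor (0.966, centred 0.934), and AAK1, a kinase of clathrin adaptors (0.964, centred 0.940). PKP2 had CD9, a tetraspanin (0.952, centred 0.869), SAMD5 (0.949, centred 0.884) and GFPT1, the first enzyme of hexosamine synthesis (0.949, centred 0.912). CLDN3 had RPL36, a ribosomal protein (0.966, centred 0.941), THAP8 (0.950, centred 0.920) and PHAF1 (0.947, centred 0.926). For CLDN15 the genes were SCML4 (0.901, centred 0.924), MGC16275 (0.880, centred 0.777) and ACSF3, a mitochondrial acyl-CoA synthetase (0.875, centred 0.792). CLDN2 was most like TMEM43 (0.883, centred 0.822), GDF15, a stress-induced secreted factor (0.872, centred 0.723), and BEST1, a chloride channel (0.863, centred 0.741). CLDN1 had lower likeness than the others, with VEGFA, the endothelial growth factor (0.833, centred 0.651), NFE2L2, the oxidative stress regulator NRF2 (0.833, centred 0.594), and HSPH1, a heat shock protein (0.831, centred 0.751). The leading genes were those of a search over all tested genes, so their values are the upper end of many.

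Cultures also differed in their cell cycle genes. A score over 37 such genes averaged -0.32 ± 0.51 in LPS+RSV, 0.44 ± 0.47 in LPS and -0.12 ± 0.63 in control cells (SD, n = 5 each). With groups centred, PKP2 had a Pearson correlation of 0.595 with this score (permutation p = 0.021, adjusted p = 0.126 over 6 relations) and a Spearman rho of 0.668 (permutation p = 0.0076, adjusted p = 0.0458), higher with a higher score. The permutations moved the centred values freely across groups and did not allow for the centring, so these p-values are too small. The adjusted p of 0.0458 is close to 0.05 and is not taken as a pass. Without LPS+RSV 2 and control 5, the samples farthest from the median of the group-centred score, the r of PKP2 was 0.390, so the relation rests in part on them. The other 5 genes had Pearson values from -0.484 for CLDN3 (rho -0.436, permutation p = 0.066 and 0.11) to 0.294 for CLDN1 (rho 0.300, permutation p = 0.28 and 0.27), with adjusted p-values of at least 0.199. With the score as a covariate, CLDN3 differed by -0.06 between LPS and control cells and by 0.30 between LPS+RSV and LPS cells, and PKP2 by 0.22 and -0.32. The part of proliferation in these differences was not tested beyond this.

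Other genes of the junctions came from lists that cover 123 genes, of which 93 were named on the array and 76 were tested, the 6 members included. In LPS against control 1 of 76 rose and 0 fell, beside 0.0254% of all genes called, and in LPS+RSV against LPS 0 rose and 1 fell, beside 0.0424%, with median differences of 0.06 and 0.01. Both calls were KRT18, the keratin of simple epithelia to which desmosomes are anchored, which rose by 0.73 in LPS cells relative to control cells (adjusted p = 0.0380 in limma) and fell by 0.66 in LPS+RSV cells relative to LPS cells (adjusted p = 0.0474). KRT18 has many near-identical pseudogenes, so its probes may read more than 1 locus, and neither call was made without LPS 1 and 2, with only the 2 groups compared in the fit, or without any one of LPS 1, 2, 4 and 5. Its differences were similar in size without LPS 1 and 2, at 0.66 and -0.59 (adjusted p = 0.486 and 0.287). KRT18 had more than 1 row. The mean of its rows gave smaller differences, at 0.53 and -0.46 (adjusted p = 0.0035 and 0.0228 in limma). In LPS+RSV against control 0 of 76 passed in limma, and 3 had an unadjusted p under 0.05, beside 10.5% of all genes.

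Of the 23 claudins, 17 were tested and 0 passed in any comparison in limma. At an unadjusted p under 0.05 there were 3 of 17 higher and 0 lower in LPS cells than in control cells (7.88% of all genes), 3 higher and 2 lower in LPS+RSV cells than in LPS cells (18.6%), and 0 in LPS+RSV cells against control cells (10.5%). Without LPS 1 and 2 the counts were 2 higher and 0 lower in LPS against control, beside 5.77% of all genes, and 2 higher and 1 lower in LPS+RSV against LPS, beside 13.2%. These counts include the member claudins, which were selected on these same differences, so they are no evidence of an excess over all genes. Among the 13 other tested claudins, over all arrays, only CLDN11 was counted in LPS against control, with 0.19. Its unadjusted p in limma was 0.04998, at the edge of the threshold. CLDN19 alone was counted in LPS+RSV against LPS, with 0.26. Both were singled out after their values were seen. Without LPS 1 and 2 every claudin counted was a member. They were CLDN1 and CLDN2 in LPS against control, and CLDN1, CLDN3 and CLDN15 in LPS+RSV against LPS. CLDN4, a sealing claudin, differed by -0.06 ± 0.11 between LPS and control cells and by 0.18 ± 0.11 between LPS+RSV and LPS cells (SE). CLDN7 differed by 0.16 ± 0.18 and 0.02 ± 0.18, and CLDN12 by -0.01 ± 0.11 and -0.17 ± 0.11, in the same comparisons. CLDN7 had the opposite sign without LPS 1 and 2 in LPS against control, at -0.10, and was 0.28 in LPS+RSV against LPS. CLDN4 was -0.13 and 0.25, and CLDN12 0.01 and -0.19, without them. Occludin (OCLN), a strand protein beside the claudins, differed by 0.10 ± 0.09 and -0.18 ± 0.09, and tricellulin (MARVELD2), which sits where 3 cells meet, by 0.03 ± 0.08 and 0.07 ± 0.08. Of the scaffolds that tie claudins to actin, ZO-1 (TJP1) differed by 0.00 ± 0.07 and -0.07 ± 0.07, ZO-3 (TJP3) by 0.26 ± 0.12 and -0.08 ± 0.12, and cingulin (CGN) by -0.08 ± 0.09 and 0.15 ± 0.09. With those arrays left out, the values were 0.09 and 0.08 for TJP3, which turned sign in LPS+RSV against LPS, -0.14 and 0.21 for CGN, -0.04 and -0.04 for TJP1, 0.03 and -0.11 for OCLN, and -0.02 and 0.13 for MARVELD2. MYLK, the myosin light chain kinase that tightens the actin belt, differed by -0.10 ± 0.07 and 0.06 ± 0.07, and CDX2, the intestinal transcription factor, by 0.06 ± 0.08 and 0.09 ± 0.08. These became -0.16 and 0.12 for MYLK and 0.02 and 0.13 for CDX2 without LPS 1 and 2.

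Of 10 tested desmosome genes 0 passed in any comparison in limma. At an unadjusted p under 0.05 there were 3 higher in LPS cells than in control cells (DSG2, PKP2 and JUP, beside 7.88% of all genes), 2 lower in LPS+RSV cells than in LPS cells (DSG2 and PKP2, beside 18.6%, a share near that of all genes), and 0 in LPS+RSV cells against control cells (10.5%). Without LPS 1 and 2 there were 0 in LPS against control, beside 5.77% of all genes, and 3 lower in LPS+RSV against LPS (DSG2, PKP2 and PKP4), beside 13.2%. DSG2 and PKP2 were selected on these same differences, so these counts are no evidence of an excess over all genes. Besides them, the only desmosome genes counted were JUP, over all arrays, and PKP4, without LPS 1 and 2. Plakoglobin (JUP), which binds the tails of desmosomal cadherins, had a narrow spread in control samples, with an SD of 0.03. These overlapped neither the LPS samples (beside 2.21% of all genes) nor the LPS+RSV samples (beside 1.72%). The second margin was narrow, with 9.969 in the highest control and 9.975 in the lowest LPS+RSV sample. The interval of LPS+RSV minus control for JUP, -0.02 to 0.26, spans 0. JUP differed by 0.19 ± 0.07 between LPS and control cells and by -0.07 ± 0.07 between LPS+RSV and LPS cells (SE). DSC2 differed by 0.12 ± 0.15 and -0.13 ± 0.15, and desmoplakin (DSP), the link to keratin, by 0.10 ± 0.10 and -0.09 ± 0.10. DSC2 turned sign in both without LPS 1 and 2, at -0.17 and 0.16, DSP was -0.0011 and 0.01, and JUP was 0.13 and -0.01. The plakophilins beside PKP2 lay nearer 0 in LPS against control, with -0.01 ± 0.10 for PKP3 and 0.00 ± 0.09 for PKP4, and with 0.18 ± 0.10 and -0.13 ± 0.09 in LPS+RSV against LPS. PKP3 was -0.06 and 0.23, and PKP4 0.12 and -0.25, without LPS 1 and 2. Whether DSG2 and PKP2 differ from the other desmosome genes was not tested. Among keratins, KRT20 differed by 1.16 ± 0.34 and -1.02 ± 0.34, with LPS 1 and 2 far above the rest, KRT8 by 0.08 ± 0.12 and -0.23 ± 0.12, and KRT19 by 0.11 ± 0.10 and 0.08 ± 0.10. KRT20 was 0.50 and -0.36, and KRT8 0.02 and -0.17, without those 2 arrays.

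**Figure D5:**
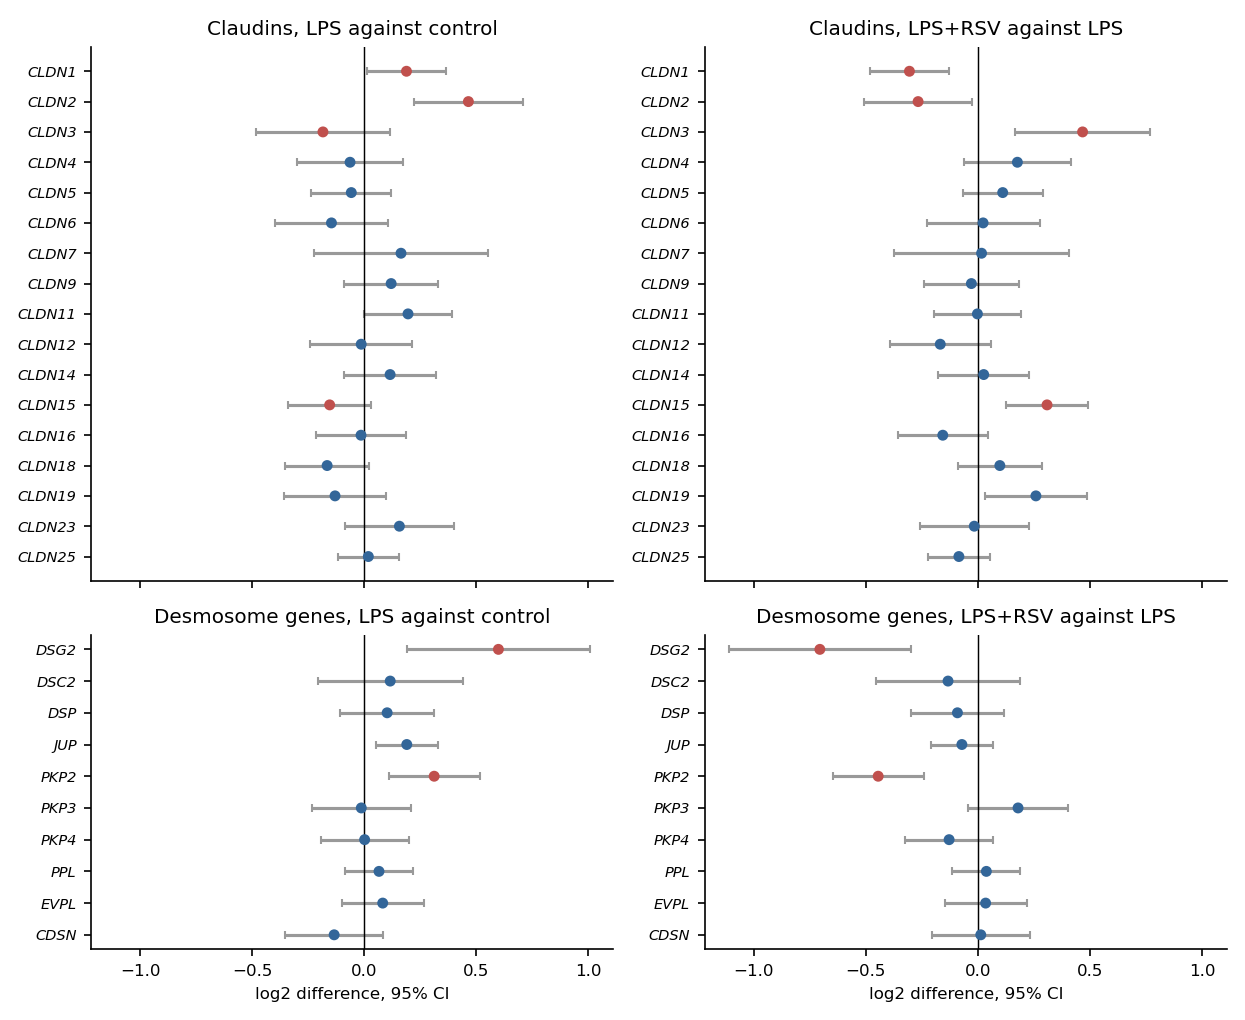
Fitted log2 differences with 95% intervals on the horizontal axis for the 17 tested claudins and the 10 tested desmosome genes, in LPS against control and LPS+RSV against LPS, with the 6 members in red and the others in blue. Among the blue genes the intervals of JUP and CLDN11 exclude 0 in LPS against control and that of CLDN19 does in LPS+RSV against LPS. The interval of CLDN11 begins at 2.06e-05, so it all but touches 0.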

How the data were processed

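RNA of 15 Caco-2 samples, 5 per group, was hybridised to Affymetrix whole-transcript arrays, from 300 ng of total RNA per sample per the labels' protocols. The deposited values are log2 expression values that the authors made with RMA, per the submitters' processing notes; its version and the genome build were not given in the sources used here. They cover 53617 rows, of which 16098 had 1 symbol and 37519 were unnamed in the platform annotation, which can be old. Each symbol was represented by its row with the highest mean. A gene was kept if at least 5 of the 15 arrays placed it above their 40th percentile of rows, which left 11804 genes. The lmFit and eBayes functions of limma 3.58.1 (R 4.3.3) estimated 1 mean per group from the 15 arrays, and p-values were adjusted by Benjamini-Hochberg at 0.05 over all genes tested. Relations to the cell cycle score used 100000 permutations of the group-centred values across all 15 arrays, with scipy 1.17.1, and other correlations were not tested. Arrays give no counts, so their number limits the precision. The members, gene lists, tests and named genes were chosen with earlier results of these data known. The genes named are the members, a list of junction genes named whether or not they passed, other junction genes that passed, and for each member the 3 most correlated genes. Of that list, F11R, CXADR, CDH1, CDH17, CTNNB1, CTNND1 and HNF4A had no row named here. Alternatives covered the filter, rows per symbol, normalization, moderation, array weights, the groups fitted, the cell cycle score as a covariate, the replicate block and arrays left out.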

Additional observations from a re-analysis of the deposited data

Results flagged for a closer look

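Among 81 groups of 5 samples examined, over the 6 members, the junction genes named beside them, the cell cycle score and the claudin score, 7 had a sample whose gap to its nearest neighbour took more than 0.71 of the range of the group; chance gives about 1 in 20. CLDN3 in LPS+RSV 1 was 9.25, against 8.47 to 8.58 in the other 4 LPS+RSV samples. The same sample was the highest of its group for CLDN4, at 7.35, against 6.69 to 6.87, and for JUP, at 10.26, against 9.98 to 10.04. CLDN1 in control 1 was 10.89, below the other controls at 11.06 to 11.07. CLDN15 in LPS 3 was 6.89, above the other LPS samples at 6.56 to 6.65. MYLK was 6.83 in LPS+RSV 3, against 6.79 in the other 4, a gap that is small in size, and 7.03 in control 4, against 6.79 to 6.85 in the other controls.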

How the results depend on the processing

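All 420 recomputed differences of the 6 members kept their direction, but many of them were bound to. The filter, the rows per symbol, the moderation, the 2-group fit and the replicate block left each difference unchanged and moved only its p-value. So did leaving out LPS+RSV 1 in LPS against control. Of the 420, 3 passed the threshold, each in LPS+RSV against LPS with 1 array left out. DSG2 was -0.84 (adjusted p = 0.0457 in limma) without LPS 3, and PKP2 was -0.49 without LPS 3 (adjusted p = 0.0379) and -0.50 without LPS+RSV 2 (adjusted p = 0.0427). With 1 array left out, DSG2 ranged from -0.84 to -0.55 and PKP2 from -0.50 to -0.39, and 0 to 2 members passed in LPS+RSV against LPS. The number of junction genes that passed in LPS against control, 1 in the fit reported, was 0 when only the 2 groups compared were fitted and without LPS 1 and 2, 3 with the cell cycle score as a covariate (KRT18, KRT20 and PARD3), and 0 to 1 with 1 array left out (0 without any one of LPS 1, 2, 4 and 5 or control 1, 3, 4 and 5). In LPS+RSV against LPS, also 1, it was 0 with no filter, with only the 2 groups fitted, with the covariate and without LPS 1 and 2, 2 after a further quantile normalization and with array weights (KRT18 and KLF5), and 0 to 5 with 1 array left out (5 without LPS 3, which were DSG2, KLF5, KRT18, PKP2 and YBX3, and 3 without LPS+RSV 2, which were KLF5, KRT18 and PKP2, and 0 without any one of the other 8). Over all genes the number that passed moved too. In LPS against control it was 76 with the covariate and 1 to 10 with 1 array left out, beside 3 in the fit reported. In LPS+RSV against LPS it was 1 to 121 with 1 array left out, beside 5. The cause was not tested. The pore-forming minus sealing score ran from 0.09 to 0.23 in LPS against control and from -0.13 to -0.0016 in LPS+RSV against LPS. Each member had 1 row, so the mean of all rows of a symbol left its values as they were. The numbers were not taken to pair the samples, since not every same-numbered pair deviated together: their correlations ran from -0.541 to 0.119 in LPS and control, from -0.370 to 0.098 in LPS+RSV and LPS, and from -0.441 to 0.707 in LPS+RSV and control, where 3 of 5 pairs were over 0.1. With the replicate block 0 members passed in each comparison, and over all genes 6 passed in LPS against control (3 without the block), 3 in LPS+RSV against LPS (5 without it) and 0 in LPS+RSV against control (0 without it). Over all alternatives the number of genes that passed ran from 0 to 76 and from 0 to 121 in the comparisons with LPS, and was 0 throughout in LPS+RSV against control. The members lay above the filter on dim rows on all 15 arrays.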
